A study of Mus musculus with 9 samples.

Results

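Interferon-stimulated genes were followed by RNA sequencing in the whole ovary of C57BL/6J mice, an inbred strain, aged 15 weeks. The list held 46 genes: 27 typical of type I interferon, 8 typical of interferon gamma and 11 induced by either. Each symbol was matched to its row of the deposited gene table, the row with the highest mean value was taken where a gene had several, and a gene was kept if it reached 1 FPKM in any group. FPKM, the count of sequenced fragments per kilobase of transcript and per unit of library size, allows levels of genes of different length to be compared. All 46 genes had a row and 45 passed, out of 33450 rows in all, 13652 of them protein-coding rows of at least 1 FPKM. Just inside the minimum was Rsad2, at 1.11 FPKM in its highest group, and just outside was Oas3, at 0.662 FPKM in its highest group.

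Control mice ate standard chow with 16% fat (values "on chow" are theirs), and the others ate a 60% fat diet for 10 weeks. Diet-fed mice were sorted by their response, so that HFLN mice had stayed lean and HFOB mice had become obese. Those 2 groups were therefore not assigned, and body weight and any other difference between responders cannot be told apart. Each group had 3 animals, combined by the authors into 1 FPKM with a lower and an upper bound, given here in brackets. No value of a single animal was used, so no difference below has a replicate check, a test or an n. The HFLN and HFOB comparisons with control share the same control value, and both comparisons that include HFLN share the HFLN value.

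Interferons are secreted signalling proteins, and most type I interferons are released by cells that sense foreign or misplaced nucleic acid. Type I interferons bind the receptor Ifnar1/Ifnar2 and act through Stat2 and Irf9 on the interferon-stimulated response element, a GAAA repeat near gene starts. Interferon gamma binds Ifngr1/Ifngr2 and acts mainly through the gamma-activated site, and it also induces Irf1, which reads GAAA repeats as well. Many of the induced proteins restrict viruses, while the guanylate-binding proteins and immunity-related GTPases act on the membranes of vacuoles that hold intracellular microbes. Most of these genes have a low level in unstimulated tissue.

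Promoter windows of 300 bases, from 250 before to 50 after an annotated start, were found in the RefSeq set for GRCm38.p6 for 35 of the 46 genes. The response-element core was searched on both strands as GAAA and GAAA with any 2 bases between them, and it lay in a window of 18 of the 35 genes (51.4%), against 1079 of 27025 genes in the whole set (3.99%). By class, it lay in 11 of 20 type I-typical genes (55.0%), 2 of 9 genes of either type (22.2%) and 5 of 6 gamma-typical genes (83.3%). The windows shown are, for each class, those of the best-expressed genes with a match before the start, 5′ to 3′ on the strand of the gene. Capitals mark the match or, where it lies on the other strand, its complement (TTTC and TTTC), with overlapping matches run together.
Bst2: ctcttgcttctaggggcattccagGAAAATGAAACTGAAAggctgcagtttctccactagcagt
Isg15: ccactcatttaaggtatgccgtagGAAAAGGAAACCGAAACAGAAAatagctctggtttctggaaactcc
Ifit3: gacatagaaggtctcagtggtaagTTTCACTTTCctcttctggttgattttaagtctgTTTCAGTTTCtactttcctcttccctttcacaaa
Stat2: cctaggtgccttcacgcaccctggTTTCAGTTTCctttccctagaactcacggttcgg
Trim30a: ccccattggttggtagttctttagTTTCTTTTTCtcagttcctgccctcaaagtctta
Gbp2: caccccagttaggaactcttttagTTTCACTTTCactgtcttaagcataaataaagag
Igtp: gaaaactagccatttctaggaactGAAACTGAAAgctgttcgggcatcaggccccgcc
Irgm1: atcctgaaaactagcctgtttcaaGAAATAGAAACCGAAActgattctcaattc

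In GRCm38.p6 the type I-typical stretches are chr8:71537563-71537626 for Bst2 (minus strand), chr4:156200851-156200920 for Isg15 (minus strand) and chr19:34583349-34583440 for Ifit3 (plus strand). Those of either type are chr10:128270252-128270309 for Stat2 (plus strand) and chr7:104465196-104465253 for Trim30a (minus strand). The gamma-typical ones are chr3:142620580-142620637 for Gbp2 (plus strand), chr11:58199498-58199555 for Igtp (plus strand) and chr11:48871421-48871474 for Irgm1 (minus strand). All 8 stretches are upstream of the start. Isg15 carries 3 overlapping matches in 1 run, and Ifit3 carries 2 separate ones on the other strand. Over all windows of the listed genes there were 28 matches, 9 genes had more than 1, and 14 genes had a match within the last 160 bases before the start. These counts were not made for the whole gene set.

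**Figure D1:**
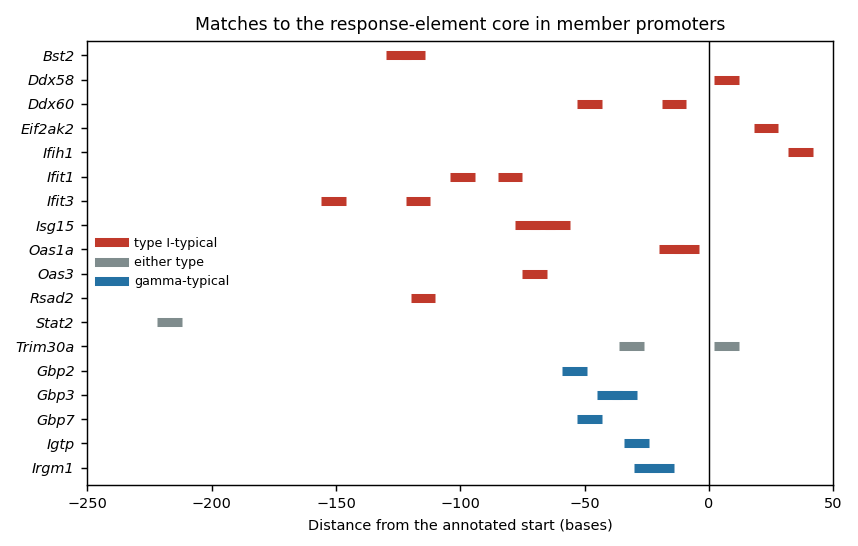
Positions of the response-element core on either strand in the promoter windows of the 18 genes that hold it, one line per gene, as distance in bases from the annotated start (vertical line at 0). Bars are matches, joined where they overlap, coloured by class. The 5 gamma-typical genes have their matches within the last 60 bases before the start, and those of Ifit1, Ifit3, Bst2, Rsad2 and Stat2 lie further upstream.

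A longer form, the core followed by a C, lay in 15 of the 35 genes (42.9%), against 0.944% of all genes. A gamma-activated site core, TTCNNNGAA, searched on both strands and allowed to overlap the other motifs, lay in 8 of 35 (22.9%), against 9.55% of all genes. Of the 6 gamma-typical genes with a window, 2 held it, Gbp7 and Igtp. A match is a description of letters only. The 17 expressed genes with the core had a median log2 fold change of 0.37 in HFLN against control, on log2(FPKM + 1), and the 17 without it had a median of 0.40. At least 1.5-fold higher in HFLN were 4 of the former and 3 of the latter (0.776% of all protein-coding rows). No window was found for 11 genes (Dhx58, Zbp1, Usp18, Oas2, Mx2, Ifi27l2a, Rtp4, Parp9, Parp14, Gbp6 and Iigp1), whose median was 0.51.

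All 45 expressed genes had their highest level in HFLN, against 36.5% of all protein-coding rows. One of the 45, Rsad2, reached the minimum of 1 FPKM in HFLN only, so it was kept through that value. The list had been drawn up with earlier results of these data known, so this direction is a description of the list and not independent evidence. Set against control, 45 of 45 were higher in HFLN at any size (50.9% of all rows), with a median log2 fold change of 0.42 (all rows 0.00). At least 1.5-fold higher on log2(FPKM + 1) were 12 of 45 (0.776% of all rows): Ifit3, Ifit1, Irf7, Oas2, Zbp1, Isg15, Iigp1, Usp18, Ifi27l2a, Ifi44, Gbp3 and Oasl2. None was at least 1.5-fold lower (1.49% of all rows). The count depends on the scaling: with the groups set to the same summed protein-coding FPKM, 25 of 45 passed, 2.32% of all rows passed, and the median of all rows stood at 0.19. Of the 45, 40 were at or above the 90th percentile of all rows, a log2 fold change of 0.21, and 35 were at or above the 95th, a log2 fold change of 0.31. The deposited intervals overlapped for every gene of the list, while they lay apart in 0.0952% of all rows.

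In HFOB the same genes were close to control. At any size, 17 were higher and 28 lower in HFOB than in control (higher in 46.6% of all rows), with a median log2 fold change of -0.04 (all rows -0.01). When the groups were instead scaled to the same summed protein-coding FPKM, 34 were higher in HFOB, so that split depends on the scaling. No gene of the list passed 1.5-fold in either direction (0.293% of all rows higher, 1.46% lower), and no pair of intervals lay apart (0.176% of all rows). The widest differences from control were those of Ifi27l2a, at a log2 fold change of 0.34, and Usp18, at -0.26. Set against HFLN, all 45 were lower in HFOB (46.5% of all rows were higher), with a median log2 fold change of -0.47. At least 1.5-fold lower were 14 of 45 (1.94% of all rows), namely 11 of the 12 genes named above, without Ifi27l2a, and in addition Igtp, Rtp4 and Oasl1. Intervals again overlapped for every gene of the list (0.0513% of all rows apart).

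**Figure D2:**
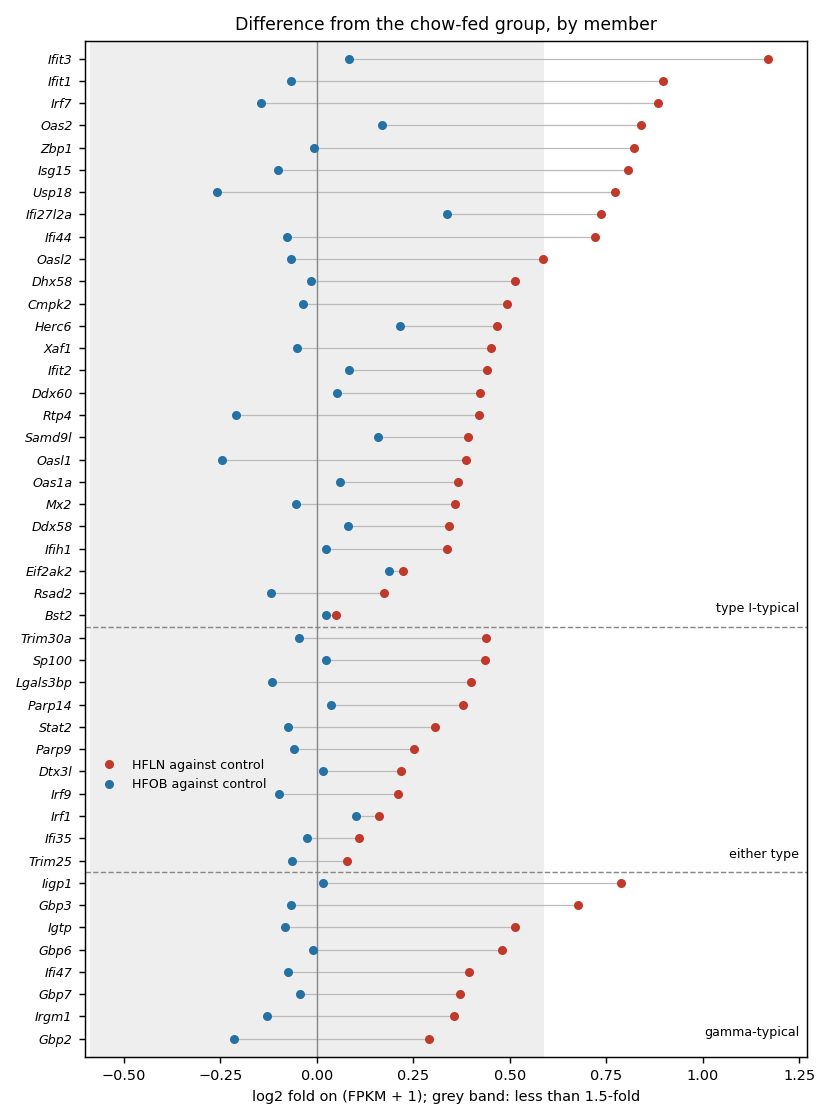
Log2 fold change against control on log2(FPKM + 1) for each of the 45 genes, HFLN in red and HFOB in blue, grouped by class and ordered by the HFLN value. The grey band covers differences under 1.5-fold: 12 red points lie outside it, from Oasl2 at 0.59 to Ifit3 at 1.17, and no blue point does.

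Of the nucleic acid sensors, a class that can start the type I interferon response, Zbp1 had the widest difference. Zbp1, a sensor of Z-form nucleic acid on chromosome 2, stood at 2.53 FPKM (0.108 to 4.95) on chow, 5.23 (1.01 to 9.46) in HFLN and 2.51 (0.259 to 4.77) in HFOB. Its HFLN level was 2.07 times that of control, with broad, overlapping intervals, and HFOB matched control closely. Dhx58, the regulatory member of the RIG-I family, stood at 3.57 FPKM (1.47 to 5.66) on chow, 5.52 (2.60 to 8.43) in HFLN and 3.52 (1.45 to 5.58) in HFOB. Its relatives that bind viral RNA and signal were less apart, with Ddx58 (RIG-I) at 10.1 FPKM on chow, 13.1 in HFLN and 10.8 in HFOB. Ifih1 (MDA5) stood at 3.47, 4.66 and 3.55 FPKM in the same order. Eif2ak2, the kinase PKR that halts translation on double-stranded RNA, was the best-expressed sensor at 50.5, 59.2 and 57.6 FPKM, in a row shared with Gm6548. It was the sensor whose HFOB level lay nearest to HFLN.

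Among factors that carry or limit the signal, Irf7 and Usp18 differed most. Irf7, the transcription factor that amplifies type I interferon production (chromosome 7, 141263183 to 141266499), stood at 14.3 FPKM (8.05 to 20.5) on chow, 27.2 (16.7 to 37.6) in HFLN and 12.8 (6.99 to 18.6) in HFOB. The HFLN value lay above the upper bound of both other groups, although the intervals overlapped. Usp18, which removes Isg15 from proteins and dampens the type I receptor (chromosome 6, 121245906 to 121270917), stood at 4.89 FPKM (2.05 to 7.73) on chow, 9.06 (4.42 to 13.7) in HFLN and 3.92 (1.52 to 6.32) in HFOB. Both were 2-fold lower or more in HFOB than in HFLN, each with a log2 fold change of -1.03. The transcription factors downstream of the type I receptor were less apart. Stat2 stood at 19.6 FPKM (12.4 to 26.8) on chow, 24.5 (15.8 to 33.1) in HFLN and 18.6 (11.8 to 25.4) in HFOB. Irf9, in a row shared with Rnf31, stood at 31.3, 36.4 and 29.2 FPKM on chow, in HFLN and in HFOB. Irf1, the factor induced by interferon gamma, was at 29.6, 33.2 and 31.8 FPKM, and Trim25, the ubiquitin ligase that activates RIG-I, was at 19.97, 21.2 and 19.0 FPKM. These last 2 were among the genes of the list with the least difference.

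The antiviral effectors held the widest difference of the list, in the Ifit genes, whose proteins bind foreign RNA and block its translation. Ifit3 (chromosome 19, 34583119 to 34588982) stood at 5.99 FPKM (2.70 to 9.29) on chow, 14.7 (7.78 to 21.7) in HFLN and 6.41 (2.92 to 9.91) in HFOB, in a row shared with its near copy Ifit3b. Its HFLN level was 2.46 times that of control, a log2 fold change of 1.17, and the reads of Ifit3 and Ifit3b cannot be told apart in it. Ifit1 (chromosome 19, 34640889 to 34650009) stood at 3.03 FPKM (1.07 to 4.99) on chow, 6.50 (2.89 to 10.1) in HFLN and 2.85 (0.725 to 4.97) in HFOB. Ifit2, in the same cluster on chromosome 19 (34550550 to 34650009), was lower in level and less apart, at 1.77, 2.76 and 1.94 FPKM on chow, in HFLN and in HFOB.

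Isg15, a ubiquitin-like protein that is attached to other proteins (chromosome 4, 156199424 to 156200818), stood at 17.3 FPKM (7.57 to 27.0) on chow, 31.0 (16.0 to 46.0) in HFLN and 16.1 (6.92 to 25.2) in HFOB. Herc6, the ligase that attaches it in mice, stood at 2.56, 3.92 and 3.13 FPKM on chow, in HFLN and in HFOB. The enzymes upstream of Herc6 in that cascade were among the further type I-typical genes. Uba7, the activating enzyme, stood at 16.4 FPKM (9.81 to 23.0) on chow, 24.7 (14.2 to 35.3) in HFLN and 14.9 (8.48 to 21.3) in HFOB. Ube2l6, the conjugating enzyme, named here after its values were seen, stood at 14.9, 19.4 and 14.8 FPKM. Of these genes and Usp18, Isg15 and Usp18 passed 1.5-fold in HFLN against control.

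The oligoadenylate synthetases make the messenger that activates RNase L. Oas2 (chromosome 5, 120730333 to 120749886) stood at 4.76 FPKM (2.203 to 7.32) on chow, 9.31 (5.06 to 13.6) in HFLN and 5.48 (2.44 to 8.51) in HFOB. Oasl2, a related antiviral protein, stood at 24.9 FPKM (15.9 to 33.9) on chow, 37.9 (23.4 to 52.3) in HFLN and 23.7 (15.2 to 32.2) in HFOB. Both passed 1.5-fold in HFLN against control, whereas Oasl1, a repressor of Irf7 translation, stood at 2.46, 3.53 and 1.92 FPKM. For Oas1a the bounds reached 0 in all groups, around 2.60, 3.65 and 2.76 FPKM, so its order is not resolved. Oas3, under the minimum, was listed at 0.300, 0.662 and 0.248 FPKM, again highest in HFLN.

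Bst2 (tetherin), which holds budding virus at the cell surface, had the highest level of the list and the least difference. It stood at 405 FPKM (262 to 548) on chow, 419 (276 to 562) in HFLN and 412 (267 to 557) in HFOB, a log2 fold change of 0.05 in HFLN against control. Its promoter, shown above, carries the element as Isg15 and Ifit3 do. Summed over the 45 genes, the level was 1025 FPKM on chow, 1283 in HFLN and 1037 in HFOB, and without Bst2 it was 619, 864 and 625 FPKM. The other effectors (Rsad2, Mx2, Cmpk2, Ddx60 and Samd9l) were all under 1.5-fold on log2(FPKM + 1). Cmpk2, a mitochondrial nucleotide kinase next to Rsad2, stood at 5.28, 7.84 and 5.12 FPKM on chow, in HFLN and in HFOB, and Rsad2 (viperin) at 0.870, 1.11 and 0.724 FPKM. Mx2, of a dynamin-like family, was at 1.88, 2.69 and 1.77 FPKM. Ddx60, a helicase that promotes RNA sensing, stood at 1.67, 2.58 and 1.76 FPKM, and Samd9l, a restriction factor of poxviruses, at 9.12, 12.3 and 10.3 FPKM.

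**Figure D3:**
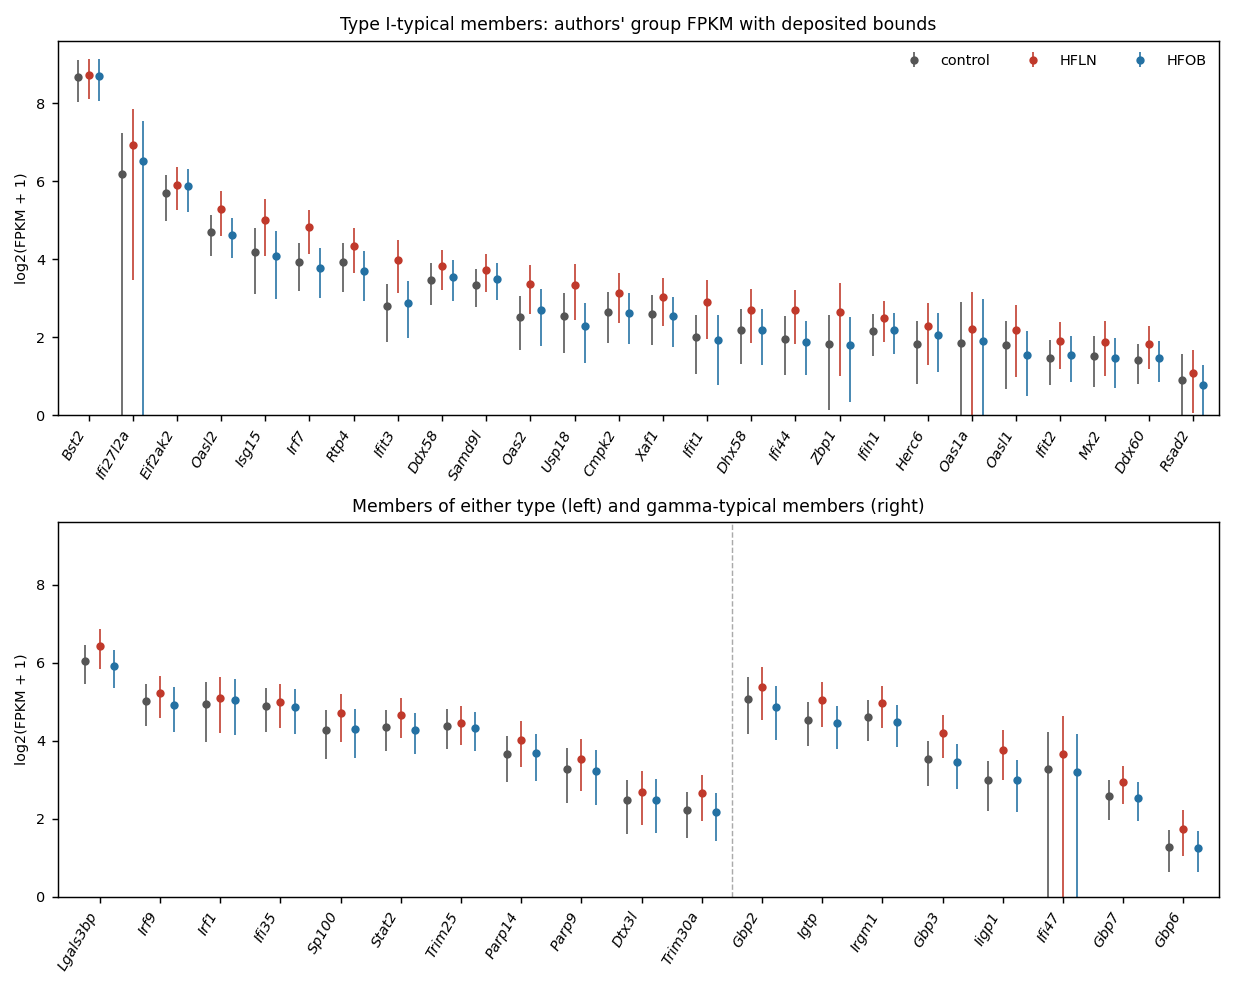
The authors' group level of each gene as log2(FPKM + 1), with the deposited lower and upper bounds as vertical lines, for control (grey), HFLN (red) and HFOB (blue), ordered by level within each class. The red point is the highest of the 3 for every gene, and the lines of the groups overlap for every gene, with the lower bound of Oas1a and Ifi47 at 0 in all groups.

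The other induced genes, of mixed function, had a median log2 fold change of 0.42 in HFLN against control, and 2 of 11 passed 1.5-fold (0.776% of all rows). Ifi44 (chromosome 3, 151730922 to 151749910) stood at 2.91 FPKM (1.03 to 4.79) on chow, 5.45 (2.57 to 8.33) in HFLN and 2.70 (1.05 to 4.36) in HFOB. Ifi27l2a, a small mitochondrial protein, stood at 71.5 FPKM (0 to 149.9) on chow, 119.8 (9.98 to 229.7) in HFLN and 90.6 (0 to 186) in HFOB. It had a lower bound at 0 in 2 of the groups, so it is among the least precise of the abundant genes here. Rtp4, a chaperone of membrane receptors, stood at 14.1, 19.3 and 12.1 FPKM on chow, in HFLN and in HFOB. Lgals3bp, a secreted glycoprotein, stood at 65.0 FPKM (42.8 to 87.2) on chow, 86.0 (56.6 to 115) in HFLN and 59.8 (39.6 to 80.1) in HFOB. Xaf1, a pro-apoptotic protein, stood at 5.00, 7.21 and 4.79 FPKM, and Trim30a, a regulator of inflammatory signalling whose promoter is shown above, at 3.65, 5.30 and 3.51 FPKM. Sp100, a component of nuclear bodies, was at 18.5, 25.4 and 18.9 FPKM, and Ifi35 was nearly level at 28.7, 31.0 and 28.2 FPKM. Parp14, an ADP-ribosyltransferase, stood at 11.6, 15.4 and 11.9 FPKM. Its neighbours Parp9 and Dtx3l, whose products form a complex and whose annotated spans overlap on chromosome 16, had smaller differences. Parp9 stood at 8.70, 10.5 and 8.30 FPKM and Dtx3l at 4.55, 5.46 and 4.61 FPKM.

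Of the interferon-inducible GTPases, which are the gamma-typical genes of the list, all 8 were highest in HFLN (36.5% of all rows). Of the 8, 2 passed 1.5-fold against control (0.776% of all rows). Iigp1, an immunity-related GTPase whose row also held Gm4951, stood at 6.92 FPKM (3.61 to 10.2) on chow, 12.7 (6.98 to 18.4) in HFLN and 7.02 (3.55 to 10.5) in HFOB. Gbp3, a guanylate-binding protein (chromosome 3, 142560016 to 142573213), stood at 10.6 FPKM (6.20 to 14.9) on chow, 17.5 (10.7 to 24.2) in HFLN and 10.03 (5.83 to 14.2) in HFOB. Gbp2 and Gbp7, its neighbours in the chromosome 3 cluster, differed less. Gbp2, the best-expressed of the cluster and counted with Gbp2b, stood at 32.9 FPKM (17.2 to 48.7) on chow, 40.5 (22.4 to 58.7) in HFLN and 28.3 (15.3 to 41.2) in HFOB. Gbp7 stood at 4.96, 6.70 and 4.78 FPKM on chow, in HFLN and in HFOB. Gbp6, which lies on chromosome 5, stood at 1.41, 2.37 and 1.40 FPKM, a ratio of HFLN to control of 1.67 at a low level. The regulatory GTPases, which keep the others off host membranes, were at higher levels than Iigp1. Igtp, in a row shared with Irgm2, stood at 22.2 FPKM (13.6 to 30.7) on chow, 32.0 (19.4 to 44.7) in HFLN and 20.9 (12.9 to 28.9) in HFOB. Irgm1 stood at 23.5, 30.4 and 21.4 FPKM. Gbp2, Igtp and Irgm1, whose promoters are shown above with the element close to the start, were all under 1.5-fold in HFLN against control. Gbp3 and Gbp7 also hold the element close to the start, and of these Gbp3 passed 1.5-fold and Gbp7 did not. Ifi47, counted with Olfr56, stood at 8.73, 11.8 and 8.24 FPKM with a lower bound of 0 in all groups.

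Set side by side, the type I-typical and the gamma-typical genes had like medians. In HFLN against control the median log2 fold change was 0.46 over 26 type I-typical genes, 0.44 over 8 gamma-typical genes and 0.25 over 11 genes of either type. The type I-typical median was thus 0.02 above the gamma-typical one. It was 0.26 above it when only genes of at least 5 FPKM in any group were kept. For every gene the highest group was HFLN, so that minimum chose genes by their HFLN value. Some, such as Zbp1 and Ifit1, reached it in HFLN only, so the 0.26 cannot be read as a class difference. The type I-typical median was below the gamma-typical one, by a difference of -0.02, when genes of either type were counted as type I-typical. Type I-typical genes ranged from 0.05 (Bst2) to 1.17 (Ifit3) and gamma-typical genes from 0.29 (Gbp2) to 0.79 (Iigp1). Past 1.5-fold were 10 of 26 type I-typical, 2 of 8 gamma-typical and 0 of 11 genes of either type (0.776% of all rows). In HFOB against control the medians were -0.01, -0.07 and -0.05 in the order type I-typical, gamma-typical and either type, and in HFOB against HFLN they were -0.52, -0.50 and -0.31. The difference between the classes was not tested.

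**Figure D4:**
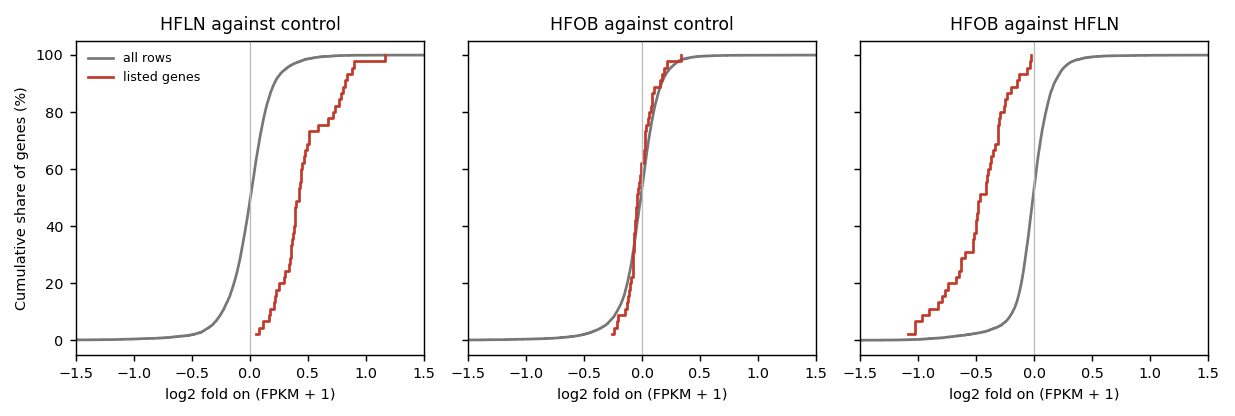
Cumulative share of genes (percent) by log2 fold change on log2(FPKM + 1) in the 3 comparisons, for the 45 interferon-stimulated genes (red) and all 13652 protein-coding rows (grey). In HFLN against control the red line is to the right of the grey one with a median of 0.42 against 0.00, in HFOB against control both medians are near 0, and in HFOB against HFLN the red line is to the left.

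Size of difference varied with level. The 24 genes with a mean under 10 FPKM had a median ratio of HFLN to control of 1.51, and the 21 at or above 10 FPKM had a median ratio of 1.32. Across the 45 genes, which come from the same libraries, Spearman's rho between mean FPKM and that ratio was -0.43, and -0.23 between mean FPKM and the log2 fold change on log2(FPKM + 1). The deposited interval reached, at the median over genes and groups, 47.6% of the value to either side (33.8% to 153%). Of the 46 listed genes, 15 lay in 6 clusters of neighbours no more than 100000 bases apart, among them the Ifit, Gbp, Oas and Oasl genes, and similar or overlapping neighbours may share reads.

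Genes of the pathway that were not on the list were counted from lists taken up with earlier results known. Of 21 interferon genes, all had a row and none reached 1 FPKM, and 12 were listed at 0 in all groups. The best-expressed was Ifne, an interferon of reproductive tract epithelium, at 0.406 FPKM (0 to 0.872) on chow, 0.881 (0 to 1.90) in HFLN and 0.854 (0 to 1.77) in HFOB. Ifng stood at 0.0557, 0.129 and 0.0322 FPKM, also with lower bounds at 0. An order among such levels cannot be resolved. Of 6 receptor genes, 5 reached 1 FPKM and none passed 1.5-fold in any comparison, where few of all rows did (in HFLN against control 0.776% higher and 1.49% lower). Their median log2 fold change in HFLN against control was 0.03. Ifnar1 stood at 15.8, 16.2 and 15.6 FPKM on chow, in HFLN and in HFOB, and Ifnar2 at 51.1, 43.8 and 49.3 FPKM. Ifngr1 stood at 39.1, 40.6 and 41.8 FPKM and Ifngr2 at 40.97, 36.9 and 39.9 FPKM.

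The 13 JAK-STAT genes had a median log2 fold change of -0.03 in HFLN against control, with none at least 1.5-fold higher (0.776% of all rows). Socs1, the feedback inhibitor of interferon receptor signalling, was not highest in HFLN. It stood at 37.2 FPKM (15.6 to 58.8) on chow, 23.9 (7.48 to 40.2) in HFLN and 14.4 (3.33 to 25.5) in HFOB. Socs1 was the 1 gene of this group at least 1.5-fold lower in HFLN than in control (1.49% of all rows). Socs3, an inhibitor of cytokine signalling through Stat3, stood at 39.4 FPKM (20.8 to 58.0) on chow, 31.4 (6.74 to 56.1) in HFLN and 13.6 (6.04 to 21.1) in HFOB. Both were at least 1.5-fold lower in HFOB than in control and than in HFLN, and each had 2 rows in the table, of which the one with the higher mean is given. Of 18 genes for sensor adaptors and interferon induction, 17 reached 1 FPKM, with a median of -0.01 in HFLN against control. None passed 1.5-fold in either direction in any comparison, and few of all rows did.

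Further type I-typical genes, outside the list of 45, gave 33 rows of at least 1 FPKM. Higher in HFLN than in control were 27 of 33 at any size (50.9% of all rows), with a median log2 fold change of 0.19. None passed 1.5-fold, which 0.776% of all rows did, so that count says little about these genes. After Uba7, given above, the widest differences were those of Mx1 and Trim12c. Mx1, of the same dynamin-like family as Mx2, stood at 0.588 FPKM (0.122 to 1.05) on chow, 1.33 (0.349 to 2.30) in HFLN and 0.737 (0.178 to 1.297) in HFOB. It reached the minimum of 1 FPKM in HFLN only, so its place among these rows rests on its HFLN value. Trim12c, a tripartite motif protein, stood at 4.82, 6.89 and 5.01 FPKM. HFOB was above control in 17 of the 33, and the median was 0.01. The row of Oas1c and Oas1g stood at 12.3, 13.4 and 14.9 FPKM, highest in HFOB, and was named after its values were seen. Further gamma-typical genes gave 17 rows, of which 14 were higher in HFLN than in control (50.9% of all rows) and none was past 1.5-fold (0.776% of all rows), with a median of 0.29 in HFLN and 0.02 in HFOB against control. Gbp4 stood at 3.32 FPKM (1.16 to 5.47) on chow, 5.45 (2.204 to 8.69) in HFLN and 3.65 (1.42 to 5.88) in HFOB. The shared row of Tgtp1 and Tgtp2 stood at 3.77, 6.05 and 4.27 FPKM with lower bounds at 0, and Gbp8 at 2.89, 4.34 and 2.54 FPKM. Set against HFLN, 1 of the 33 type I-typical and 2 of the 17 gamma-typical rows were at least 1.5-fold lower in HFOB (1.94% of all rows). Counts this small say little about these genes. The gamma-typical genes named here are GTPases, as are the gamma-typical genes of the list.

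**Figure D5:**
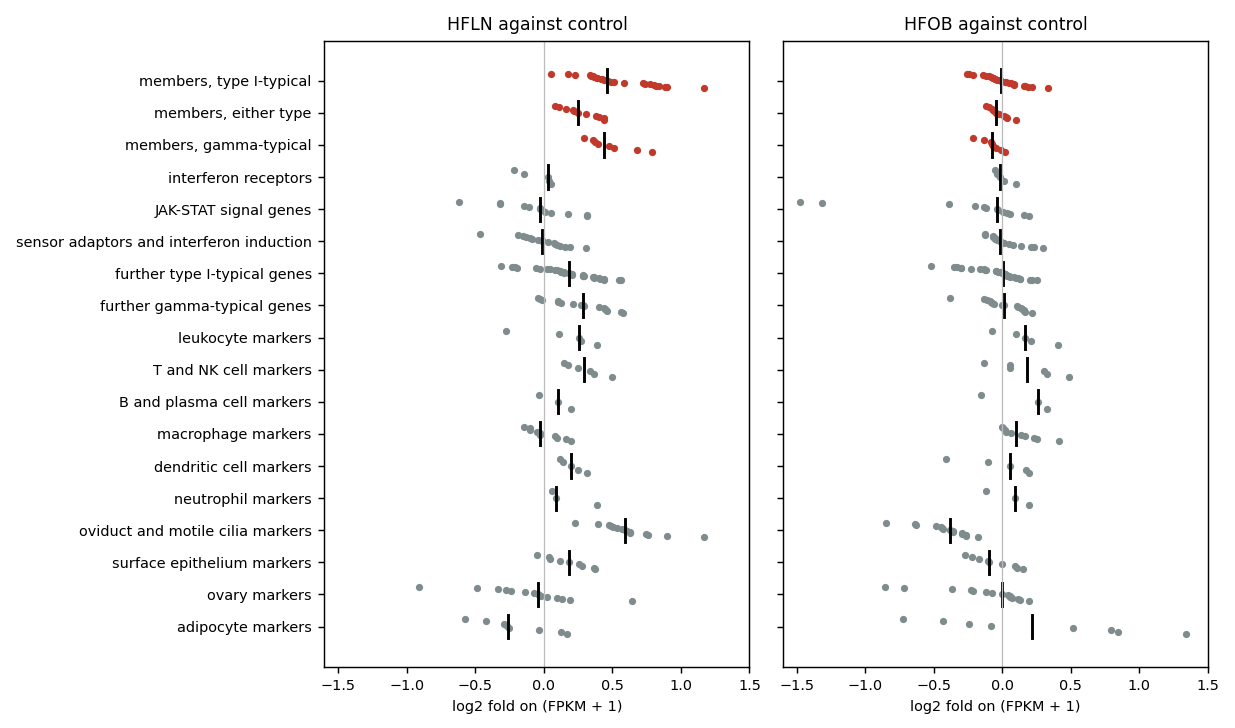
Log2 fold change against control on log2(FPKM + 1) for HFLN (left) and HFOB (right), one point per row of at least 1 FPKM, with a black bar at the median of each list. Classes of the 45 genes are red and all other lists grey. In HFLN the oviduct and motile cilia markers, with a median of 0.59, lie further to the right than the type I-typical genes at 0.46, and in HFOB they lie to the left, at -0.38.

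Markers of the cells that the ovary could hold differed between groups to unequal degree. In bulk tissue, fewer cells of a type and less RNA per cell cannot be told apart. Ovary markers were abundant, and the 15 of them summed to 9573 FPKM on chow, 8299.6 in HFLN and 8519 in HFOB. In HFLN 10 of the 15 were lower than in control, with log2 fold changes from -0.91 (Cyp17a1, an enzyme of androgen synthesis) to 0.64 (Star, the cholesterol carrier of steroid synthesis), the 2 past 1.5-fold. Of all rows, 0.776% were at least 1.5-fold higher in HFLN than in control and 1.49% were that much lower. In HFOB 2 of the 15 were at least 1.5-fold lower than in control (1.46% of all rows) and none was that much higher (0.293% of all rows). Near level were Amh at 181, 176 and 187 FPKM and Zp3 at 52.2, 53.0 and 54.4 FPKM on chow, in HFLN and in HFOB. Macrophage markers, 11 in number, summed to 747 FPKM on chow, 707 in HFLN and 854 in HFOB, a sum led by a few abundant genes such as Lyz2. Of the 10 that reached 1 FPKM, 4 were higher and 6 lower in HFLN than in control, with a median log2 fold change of -0.03, and 2 were highest in HFLN. The 5 pan-leukocyte markers summed to 101, 98.5 and 108 FPKM, a sum led by Cd52, but 4 of the 5 were higher in HFLN than in control, with a median log2 fold change of 0.26, among them Ptprc (CD45) at 2.61, 3.72 and 3.17 FPKM. Lymphocyte markers were low: 15 T and NK cell markers summed to 10.45 FPKM on chow, 14.5 in HFLN and 12.7 in HFOB. With no minimum level, 12 of the 15 were highest in HFLN, against 36.5% of all rows of at least 1 FPKM. Only 6 of the 15 reached 1 FPKM, so the 2 shares differ in threshold. All 6 of these were highest in HFLN, with a median log2 fold change of 0.29 in HFLN against control. Their median level was 1.05 FPKM on chow and 1.35 in HFLN, near the minimum, which they met by their HFLN value. The 9 dendritic cell markers summed to 12.2, 15.1 and 11.6 FPKM. Highest in HFLN were 4 of the 5 that reached 1 FPKM, but only 5 of all 9. Siglech, a marker of the plasmacytoid cells that make type I interferon, stood at 0.506, 0.620 and 0.458 FPKM. It was under 1 FPKM in all groups, too low to order the groups by. B and plasma cell markers (7) summed to 26.7, 26.3 and 24.6 FPKM, and neutrophil markers (8) to 3.33, 4.11 and 3.65 FPKM.

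Epithelial markers differed more. All 15 oviduct and motile cilia markers were highest in HFLN (36.5% of all rows), 8 of them at least 1.5-fold above control (0.776% of all rows). All 15 were lower in HFOB than in control (46.6% of all rows were higher), 3 of them by at least 1.5-fold (1.46% of all rows). Their sum was 654 FPKM on chow, 868 in HFLN and 516 in HFOB, and Foxj1, the master factor of motile cilia, stood at 19.4, 33.5 and 15.6 FPKM. Surface epithelium markers were higher in HFLN than in control for 8 of 9 (50.9% of all rows) and summed to 361, 431 and 349 FPKM. Adipocyte markers (8) summed to 268, 239.7 and 289 FPKM, lowest in HFLN. No marker in any of these lists was listed at 0 in all groups. The part of these cells, of the T, NK and dendritic markers and of the epithelium, in the interferon result was not tested.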

How the data were processed

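RNA sequencing of whole ovaries covered 9 mice, 3 per group. Per the submitters' processing notes, the tools were Cuffdiff 2.2.1.3, Cufflinks 2.2.1.0, TopHat2 2.1.0 and Trimmomatic 0.32.3, and the build was mm10. The sources used here do not give the annotation, the library scaling or the use of strand, so overlapping genes may share reads. Per the file headers, the authors deposited 1 FPKM per gene and group, with a lower and an upper bound, and the sources used here do not give the confidence level of these bounds. Fragment totals are unknown, so depth limits are given only by those bounds. A test over animals had been planned and was replaced by values without a test, because the table holds group values only.

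RefSeq's GRCm38.p6 annotation gave symbols and coordinates and held 99.2% of the 36886 identifiers in the table. From the deposited FPKM, fold changes were computed on log2(FPKM + 1), which understates the change of low genes, over protein-coding rows of at least 1 FPKM with status OK, with 1.5-fold as the limit for counts (Python 3.11.15, pandas 2.3.3). The calculation was tested on simulated data, which is no check of the 1.5-fold counts given here. Whether those counts hold at the spread between animals was not tested, because the table holds group values only. All genes of the list were described, those past 1.5-fold with their bounds, and the 3 widest differences of the further interferon lists. The members and all lists were chosen with earlier results of these data known. Alternatives were another pseudocount, minimum, fold limit, row choice and scaling, and rows or genes left out. The 45 genes include 7 in rows merged with another symbol.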

Additional observations from a re-analysis of the deposited data

How the results depend on the processing

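No paired analysis was possible because the table holds 1 value per group and no replicate columns, and for the same reason no animal could be left out. Under each alternative run, every gene of the list that it kept was higher in HFLN than in control and lower in HFOB than in HFLN. Most alternatives could not change this order, because another pseudocount, minimum or fold limit, and rows left out, keep the same group values. Scaling to the same summed FPKM shifted every gene towards HFLN, by a log2 of 0.22 against control. The unchanged order is therefore no check of the result. The median log2 fold change of the list lay between 0.41 and 0.59 in HFLN against control, between -0.05 and 0.03 in HFOB against control and between -0.58 and -0.41 in HFOB against HFLN.

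Scaling the groups to the same summed protein-coding FPKM raised the number of genes at least 1.5-fold higher in HFLN than in control from 12 to 25. The median of all protein-coding rows then stood at 0.19, and 2.32% of them passed. Under that scaling 34 genes, not 17, were higher in HFOB than in control. With a limit of 2-fold, 1 gene was higher in HFLN than in control and 3 were lower in HFOB than in HFLN. With non-overlapping deposited intervals as the limit, 0 genes passed in either comparison. In each comparison the deposited intervals overlapped for every gene of the list, so no difference here is clear of the bounds, and depth is unknown.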

Other observations

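Of all protein-coding rows of at least 1 FPKM, 80 were at least 1.5-fold higher in HFLN than in both other groups (0.586%). Interferon-stimulated genes of the list made up 11 of the 80 (13.8%), and the 15 listed oviduct and motile cilia markers 8 (10.0%). The second share leaves out cilia genes that were not listed as markers. Such genes among the 80, named after their values were seen, include Drc1, Dnali1 and Tekt4. The 2 shares therefore do not rank interferon genes above cilia genes. A further sign of cilia was the Cfap genes, which encode proteins of the ciliary axoneme: 7 of their 29 rows were among the 80, a group singled out after the values were seen. Genes of other kinds among the 80, also named after their values were seen, included Unc13d and Cited1. Unc13d, needed for release of cytotoxic granules, stood at 9.55 FPKM (5.12 to 14.0) on chow, 17.3 (9.64 to 25.1) in HFLN and 10.6 (5.79 to 15.4) in HFOB. Cited1, a transcriptional co-regulator, stood at 17.5 FPKM (7.75 to 27.2) on chow, 30.8 (15.5 to 46.0) in HFLN and 19.1 (8.86 to 29.3) in HFOB. The deposited intervals of both genes overlapped between groups.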
